A study of Rattus norvegicus with 18 samples.

Results

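The genes described here are 8 brakes on ERK signalling, namely the dual-specificity phosphatases Dusp1, Dusp4, Dusp5, Dusp6 and Dusp10 and the Sprouty family members Spry2, Spry4 and Spred1. They were found in the count tables by gene symbol. Of the 8 symbols, 7 had a row among 31463 rows, and all 7 passed the filter on low counts together with 14398 genes in all. Dusp1 had no row under its symbol and was not analysed here. RNA sequencing gave their expression in 18 libraries of neuroglial cultures from the cerebral cortex of newborn Wistar rats, which hold neurons together with glia.

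The libraries form 6 groups of 3, and the experiment was run on day 10 in vitro. Control cultures received no glutamate. Glutamate cultures were exposed to 100 µM glutamate, the model of excitotoxicity, which is damage to neurons by excess glutamate. Memantine cultures received 100 µM memantine, a blocker of the NMDA class of glutamate receptors. The label of this group does not name glutamate, and the study's text places it within the glutamate model as the positive control. The groups Glutamate_vesicles, Glutamate_secret and Glutamate_BPC received, a day before glutamate, material secreted by glial progenitor cells that had been derived from human induced pluripotent stem cells. The preparations were the total secretome, its extracellular vesicles and its proteins of 3 to 100 kDa. The labels do not tell which of Glutamate_secret and Glutamate_BPC was the protein fraction, so these names are kept. RNA was taken 4 h after the model. Cultures had been treated with cytosine arabinoside, which limits the growth of glia. The labels do not say whether the 3 libraries of a group came from separate cultures or animals, so p-values measure only the spread between these libraries. The study's methods speak, for its experiments in general, of cultures from unrelated cells, and its supplement names a covariate day whose effect was removed for plots of the samples. Which libraries share a day is not given there, and the replicate number was used as a block only as an alternative.

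ERK is the last kinase of a cascade that runs from growth factor or glutamate receptors through Ras, Raf and MEK. Active ERK switches on a set of early genes, and several of its own inhibitors are among them, so that the pathway is held back by negative feedback. The Dusp phosphatases remove the activating phosphates from MAP kinases. Sprouty and Spred proteins act further up, between receptor tyrosine kinases and Raf. In neurons, ERK carries signals from synaptic activity and calcium entry to the nucleus.

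Levels are CPM, a gene's counts relative to the library's total after scaling by the trimmed mean of M values. They are not divided by transcript length and were compared only between libraries, not between genes. The smallest library, Control 1, held 8409574 counts and the largest, Glutamate_vesicles 2, held 17206354. Ribosomal RNA (rRNA) took between 3.04% of counts, in Glutamate_secret 2, and 43.0%, in Control 1. Control 1 stood apart from the other libraries in this share, the next highest being 26.6% in Glutamate_secret 3, and comparisons with Control are also given without it. All 9 neuron markers (Tubb3, Map2, Rbfox3 and others) and all 8 astrocyte markers were detected. The summed neuron markers lay between 2094 and 2806 CPM in Control and between 599.6 and 1133 CPM in Glutamate. The astrocyte markers lay between 3534 and 6486 CPM in Control and between 5834 and 11770 CPM in Glutamate. In bulk RNA of this kind, fewer cells of a type and less RNA per cell cannot be told apart.

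Promoter sequence is shown for Dusp5, Dusp6 and Spry4, the 3 members with an unadjusted p below 0.05 in at least 1 comparison. RefSeq windows of the rat assembly GRCr8 were matched for 7 of the 8 symbols, with no entry for Dusp4 and 2 entries for Spry2. The 250 bases before the annotated start of the transcript were searched on both strands for 4 motifs. These were the cAMP response element TGACGTCA, the AP-1 site TGANTCA, the CArG box bound by serum response factor, and the core CCGGAA of sites for ETS factors. Capitals mark the matches. The Dusp5 window (chr1:262543524-262543773, plus strand) held 2 CArG boxes next to each other, from base -82 to base -63 relative to the start. The Spry4 window (chr18:30702547-30702796, minus strand) held 1 ETS core, from base -81 to base -76. The Dusp6 window (chr7:35979354-35979603, plus strand) held none of the 4, and it is shown because Dusp6 had the smallest p of the phosphatases in 3 of 5 comparisons with Control.
Dusp5: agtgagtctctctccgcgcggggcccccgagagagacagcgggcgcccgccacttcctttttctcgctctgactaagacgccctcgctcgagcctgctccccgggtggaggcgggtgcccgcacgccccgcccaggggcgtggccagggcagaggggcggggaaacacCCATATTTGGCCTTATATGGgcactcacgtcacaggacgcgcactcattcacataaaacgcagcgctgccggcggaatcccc
Spry4: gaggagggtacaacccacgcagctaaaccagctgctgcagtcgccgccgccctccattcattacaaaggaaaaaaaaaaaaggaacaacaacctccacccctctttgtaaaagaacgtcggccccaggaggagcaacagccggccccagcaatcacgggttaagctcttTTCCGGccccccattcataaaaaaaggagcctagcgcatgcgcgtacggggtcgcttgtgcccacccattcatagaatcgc
Dusp6: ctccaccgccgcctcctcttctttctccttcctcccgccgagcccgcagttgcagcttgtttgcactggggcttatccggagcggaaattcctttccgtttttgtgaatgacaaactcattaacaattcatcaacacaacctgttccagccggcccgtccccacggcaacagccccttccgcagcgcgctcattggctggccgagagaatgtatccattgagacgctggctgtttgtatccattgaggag
Of 33469 windows of this length, 1.5% held a CArG box, 12.6% the ETS core, 6.34% the AP-1 site and 1.59% the cAMP response element. The window of Dusp1 held 1 cAMP response element, 1 of the 2 windows of Spry2 held 1 ETS core, and the windows of Dusp10 and Spred1 held none of the 4. A match describes letters only, since binding was not measured.

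Dusp6 is a cytoplasmic phosphatase that is specific for ERK and is a classic feedback target of the pathway. Its level was 21.7, 13.9 and 9.53 CPM in the Control libraries and 39.1, 27.2 and 22.8 CPM in the Glutamate libraries. Every Glutamate library lay above every Control library, although Glutamate 3 and Control 1 were close. The Memantine libraries had 24.4, 11.1 and 26.0 CPM and overlapped with both groups. Dusp6 reached 33.4, 30.8 and 41.0 CPM in Glutamate_vesicles, 42.4, 28.5 and 49.1 CPM in Glutamate_secret and 30.8, 37.4 and 21.2 CPM in Glutamate_BPC. All libraries of the first 2 of these groups were above all Control libraries, and those of Glutamate_BPC were not.

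The log2 fold change of Dusp6 in Glutamate against Control was 0.99 ± 0.40 (SE), with a 95% confidence interval from 0.14 to 1.84. The quasi-likelihood test of edgeR gave an unadjusted p of 0.0258 and an adjusted p of 0.498, so that the difference did not pass the correction over all genes. Without Control 1 the log2 fold change was 1.34, with an adjusted p of 0.337. The unadjusted p was 0.0661, 0.111 and 0.109 when Control 2, Control 3 or Glutamate 1 was left out. Against the same Control libraries, the log2 fold change was 1.42 ± 0.41 in Glutamate_secret, 1.23 ± 0.40 in Glutamate_vesicles, 1.00 ± 0.40 in Glutamate_BPC and 0.45 ± 0.40 in Memantine. The adjusted p of edgeR was 0.181, 0.236, 0.365 and 1. These 5 values share the Control libraries and are not independent of each other. In the F test over all 6 groups, Dusp6 had the smallest p of the members, at 0.0334 before and 0.533 after adjustment.

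Dusp5 is a nuclear, inducible phosphatase, also specific for ERK. It had few counts, with 1, 12 and 19 in the Control libraries, or 0.286, 0.589 and 1.023 CPM. The Glutamate libraries had 1.55, 2.29 and 1.95 CPM, all above Control. The Memantine libraries were similarly placed at 1.83, 1.61 and 2.51 CPM. The groups with preparations were more scattered, from 0.598 to 5.62 CPM in Glutamate_vesicles and from 0.543 to 3.50 CPM in Glutamate_secret. Glutamate_BPC had 2.63, 4.32 and 2.71 CPM, so that its range lay above those of Control and Glutamate.

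In Glutamate against Control the log2 fold change of Dusp5 was 1.498 ± 0.769 (95% confidence interval from -0.14 to 3.13, unadjusted p of 0.0697, adjusted p of edgeR 0.692). Against Control it was 2.32 ± 0.78 in Glutamate_vesicles and 2.23 ± 0.78 in Glutamate_BPC, with unadjusted p-values of 0.00883 and 0.0112 and adjusted p-values of 0.241 and 0.307. It was 1.53 ± 0.77 in Memantine and 1.38 ± 0.77 in Glutamate_secret. The Control group held 32 counts of Dusp5 in all, and Control 1 only 1. Without Control 1 the log2 fold change in Glutamate was 1.26.

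Dusp4, a nuclear phosphatase that acts on ERK and JNK, varied more between libraries of a group than any other member. Its level was 3.43, 21.1 and 28.0 CPM in Control and 3.49, 29.2 and 6.91 CPM in Glutamate. The Memantine libraries had 7.09, 52.6 and 5.53 CPM, and the Glutamate_vesicles libraries had 5.28, 59.8 and 30.4 CPM. Glutamate_secret had 3.15, 29.9 and 2.35 CPM and Glutamate_BPC had 7.70, 16.5 and 6.29 CPM. The library with replicate number 1 stayed at or below 7.70 CPM in each of the 6 groups, and in 5 of the groups the library with number 2 was the highest. The range over all libraries was 25.4-fold, and the SD within groups was 1.62 on the log2 scale. The log2 fold change in Glutamate against Control was -0.42, with a confidence interval from -2.85 to 2.02, so that changes of several fold in either direction could not be detected. Its sign was positive when Control 3 or Glutamate 1 was left out, at 0.08 and 0.03.

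Dusp10 is a phosphatase that acts mainly on the MAP kinases p38 and JNK rather than on ERK. It was the steadiest member. Its level lay between 2.05 and 4.09 CPM in all 18 libraries, a 2.00-fold range. Its group mean was 3.23 ± 0.461 CPM (SD, n = 3) in Control and 3.17 ± 0.882 CPM in Glutamate. The Memantine mean was 3.04 ± 0.505 CPM. With the preparations the mean was 3.05 ± 1.021 CPM for vesicles, 3.17 ± 0.618 CPM for Glutamate_secret and 3.17 ± 0.791 CPM for Glutamate_BPC. The log2 fold change in Glutamate against Control was -0.02 ± 0.42, with a confidence interval from -0.91 to 0.87. A change of more than about 1.83-fold upward lay outside this interval, and a smaller one could not be told from no change.

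Spry4, a Sprouty protein that restrains Ras activation, had 2.28, 8.54 and 6.41 CPM in the Control libraries. The Glutamate libraries had 10.7, 31.6 and 12.6 CPM, each above every Control library. Memantine had 17.4, 12.8 and 16.5 CPM, also above every Control library, and its 3 libraries were the closest to each other of any group. Glutamate_vesicles had 11.96, 28.0 and 24.9 CPM. Glutamate_secret had 13.5, 23.2 and 4.53 CPM and Glutamate_BPC had 17.4, 21.4 and 8.03 CPM, so that replicate 3 of either group fell within the range of Control.

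Spry4 had the largest log2 fold change among the members in Glutamate against Control, at 1.64 ± 0.63, or 3.12-fold (confidence interval from 1.24-fold to 7.85-fold). The unadjusted p was 0.0188 and the adjusted p of edgeR 0.450. The value moved to 0.99 without Glutamate 2, which had the highest level of all libraries, and to 1.30 without Control 1, which had the lowest. The unadjusted p was then 0.141 and 0.0714. Against Control, the log2 fold change was 1.88 ± 0.63 in Glutamate_vesicles, 1.41 ± 0.62 in Glutamate_BPC, 1.40 ± 0.62 in Memantine and 1.24 ± 0.62 in Glutamate_secret. In Glutamate_vesicles against Control the libraries with the same replicate number deviated together, with an r of their deviations of 0.6, 0.505 and 0.208. With the replicate number as a block, Spry4 passed the correction there, with a log2 fold change of 1.90 and an adjusted p of 0.0488, against 0.241 without the block. Over all genes the block called 538 in that comparison, against 2 without it.

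Spry2, the most widely studied Sprouty inhibitor of receptor tyrosine kinase signalling, had 820.6 CPM in Control 1, its highest level of all libraries, while Control 2 and Control 3 had 73.5 and 68.5 CPM. The Glutamate libraries had 479.6, 158.6 and 368.0 CPM. Memantine had 199.8, 64.4 and 198.0 CPM, and Glutamate_vesicles had 212.7, 130 and 134.4 CPM. Glutamate_secret had 523.3, 133.9 and 711.9 CPM and Glutamate_BPC had 220.8, 152.2 and 224.2 CPM. The unscaled counts of Spry2 ranged only from 1159 to 3933, a narrower range than the 12.7-fold range of its CPM. Control 1 had 2874 of these counts in the smallest library and a scaling factor of 0.417.

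The comparison of Spry2 between Glutamate and Control turned on that library. With all libraries the log2 fold change was 0.07 ± 0.83 (confidence interval from -1.69 to 1.82). Without Control 1 it was 2.24, with an unadjusted p of 0.00602 and an adjusted p of edgeR of 0.301. It was negative, at -0.40, -0.41 and -0.27, when Control 2, Control 3 or Glutamate 1 was left out. No direction is given for Spry2 for this reason.

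Spred1, a Sprouty-related protein that acts ahead of Raf with the help of neurofibromin, had 33.7, 35.2 and 43.7 CPM in Control, a narrow range. Glutamate 1 and Glutamate 3 had 30.0 and 39.0 CPM, within or below the range of Control, and Glutamate 2 lay far above it, with 1670 counts and a log2 CPM of 6.73. In the 4 treated groups, too, the library with replicate number 2 was the highest, with levels between 57.0 CPM in Glutamate_BPC and 82.7 CPM in Glutamate_secret. The log2 fold change in Glutamate against Control was 0.64 ± 0.58, with an adjusted p of 0.984, and it was -0.12 without Glutamate 2.

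**Figure D1:**
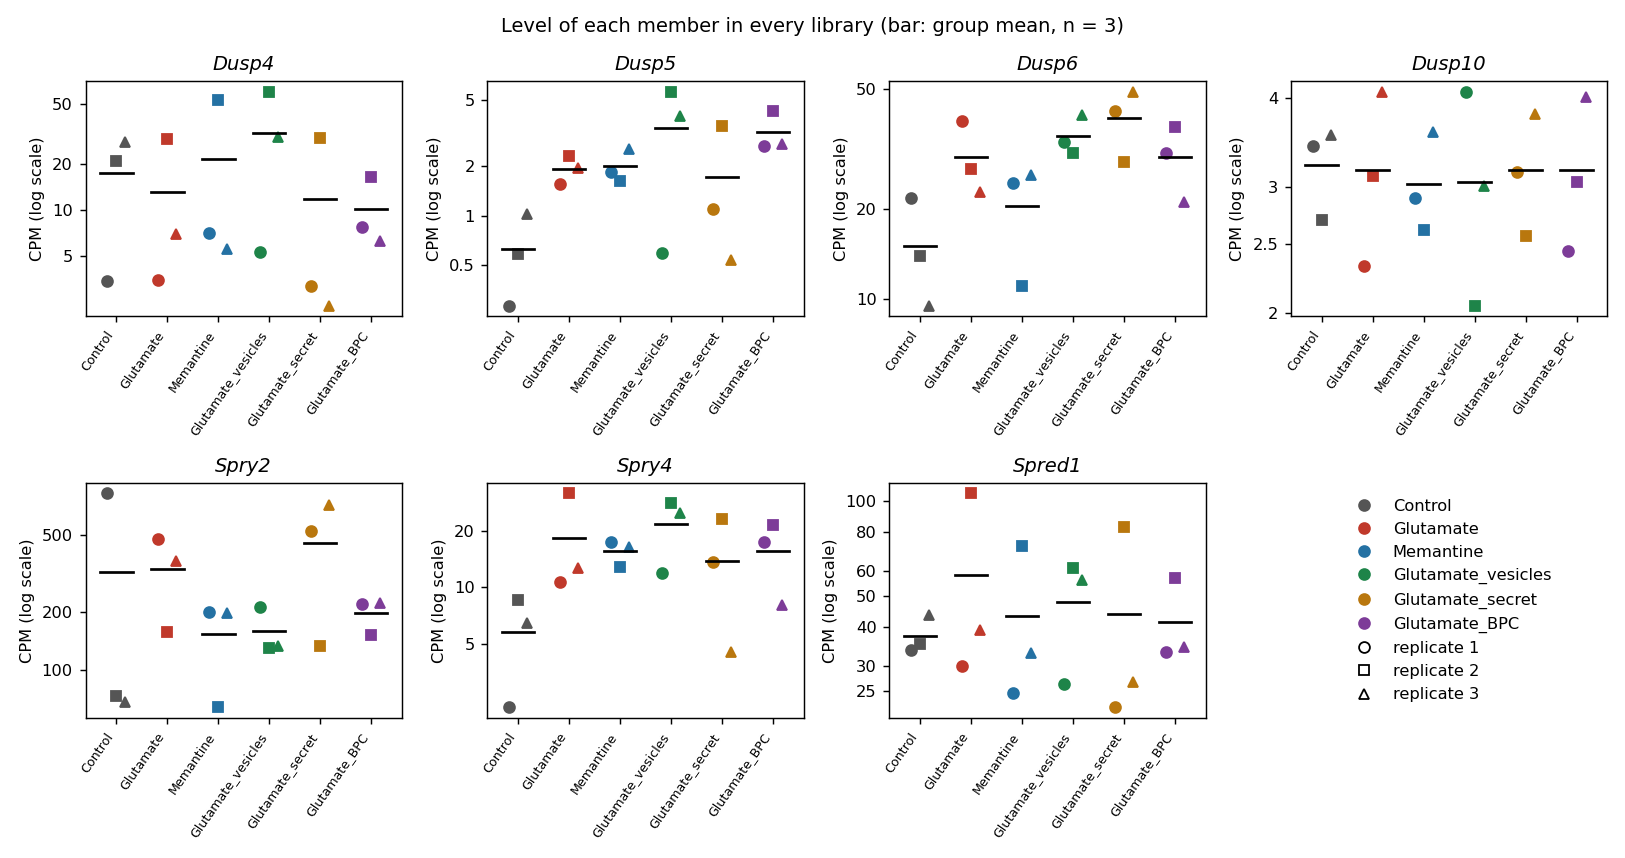
Level of the 7 measured members in each of the 18 libraries, in CPM on a log axis, by group. Symbols give the replicate number and bars the mean of 3 libraries. The Control libraries of Dusp5, Dusp6 and Spry4 lie below the 3 Glutamate libraries, while those of Dusp4, Dusp10, Spry2 and Spred1 overlap with them. Over all libraries the level ranged from 2.00-fold for Dusp10 to 25.4-fold for Dusp4.

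The first question was whether glutamate altered these genes. By the adjusted p of edgeR, 0 of the 7 members passed, and 0% of all genes did. Of 232 genes called by DESeq2 and 45 called by a likelihood-ratio test in edgeR, 0 were members. At an unadjusted p below 0.05, 2 members were higher in Glutamate, Spry4 and Dusp6, against 8.11% of all genes in either direction and 2.13% of all genes in the upward direction. For 3 of 7 members, Dusp5, Dusp6 and Spry4, every Glutamate library was above every Control library. Ranges without overlap, in either direction, were found for 12.2% of all genes. The median log2 fold change of the members was 0.64, and that of all genes was 0.08.

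The next question was whether memantine or the secreted preparations altered the members in the presence of glutamate. None of the 7 was called against Glutamate by edgeR or DESeq2 in any of the 4 groups, and 0 had an unadjusted p below 0.05. By edgeR, the share of all genes with an adjusted p below 0.05 was 0% in each, and DESeq2 called 2 genes in Memantine, 3 with vesicles, 0 in Glutamate_secret and 1 in Glutamate_BPC. Without Memantine 3, edgeR called 254 genes in Memantine against Glutamate, and 0 of them were members. For an unadjusted p it was 5.08% in Memantine, 1.08% with vesicles, 1.07% in Glutamate_BPC and 0.681% in Glutamate_secret. Ranges without overlap were found for Dusp5 in Glutamate_BPC alone, which was higher, and for 0 members in the other 3 groups. Among all genes such ranges, in either direction, were found for 7.13% in Glutamate_BPC, 6.27% with vesicles, 3.41% in Glutamate_secret and 2.86% in Memantine.

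The intervals show what could have been missed. For Dusp6, the log2 fold change against Glutamate was -0.54 (from -1.38 to 0.31) for Memantine, 0.24 (from -0.60 to 1.08) for Glutamate_vesicles, 0.43 (from -0.41 to 1.27) for Glutamate_secret and 0.01 (from -0.84 to 0.85) for Glutamate_BPC. For Spry4 it was -0.24 (from -1.53 to 1.05), 0.24 (from -1.05 to 1.53), -0.41 (from -1.70 to 0.89) and -0.23 (from -1.52 to 1.06) in the same order. For Dusp5 it was 0.04, 0.82, -0.11 and 0.74, with intervals of about the same width, the widest reaching from -1.68 to 1.45. Apart from Dusp6 in Glutamate_BPC, each of these intervals held a 2-fold change in at least 1 direction, so that a missing call does not show that the groups were alike. The F test over the 3 preparations called 0 members, against 0% of all genes, and had 0 members at an unadjusted p below 0.05, against 0.382% of all genes. Its smallest p among the members was 0.171, for Spry2.

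Each treated group was also compared with Control. The adjusted p of edgeR called 0 of 7 members in each of the 4 comparisons, against 0.0139% of all genes in Glutamate_vesicles and 0% in Memantine, Glutamate_secret and Glutamate_BPC. The unadjusted p was below 0.05 for Spry4 in Memantine, for Spry4, Dusp5 and Dusp6 in Glutamate_vesicles, for Dusp6 in Glutamate_secret, and for Spry4, Dusp5 and Dusp6 in Glutamate_BPC. All of these were higher than in Control. Without Control 1 the unadjusted p of Spry4 was 0.132 in Memantine and 0.129 in Glutamate_BPC, and Spry2 had 0.00200 in Glutamate_secret and 0.0434 in Glutamate_BPC. For Dusp6 and Dusp5 without Control 1, the unadjusted p stayed below 0.05 in each group named for them. The count in Memantine went from 1 to 0 without Control 1, Memantine 1 or Memantine 3. That in Glutamate_BPC went from 3 to 1 without Control 3, Glutamate_BPC 1 or Glutamate_BPC 2. That in Glutamate_secret went from 1 to 2 without Control 1 or Control 2, and to 3 without Glutamate_secret 3. With all libraries, the same criterion was met in either direction by 1.12% of all genes in Memantine, 11.6% with vesicles, 11.8% in Glutamate_secret and 11.3% in Glutamate_BPC. In the upward direction alone, it was met by 0.576%, 3.99%, 4.14% and 3.92% of all genes. In this order, ranges without overlap were found for 2, 2, 1 and 1 members, all of them higher. Such ranges, in either direction, were found for 2.35%, 19.5%, 15.9% and 24.9% of all genes. The median log2 fold change of the members against Control was 0.85 for vesicles, 0.51 for Glutamate_secret, 0.30 for Memantine and 0.15 for Glutamate_BPC. The medians of all genes were 0.04, 0.06, 0.11 and -0.06. In Glutamate_secret against Control, Dusp6 passed the correction in DESeq2 with an adjusted p of 0.0227, among 449 genes called. With the rRNA share as a covariate, edgeR called 581 genes there, Dusp6 (adjusted p of 0.0317) and Spry2 (adjusted p of 0.0429) among them. In the F test over the 6 groups, edgeR called 0 members, against 0.00695% of all genes, and Dusp6 alone had an unadjusted p below 0.05, against 7.75% of all genes.

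**Figure D2:**
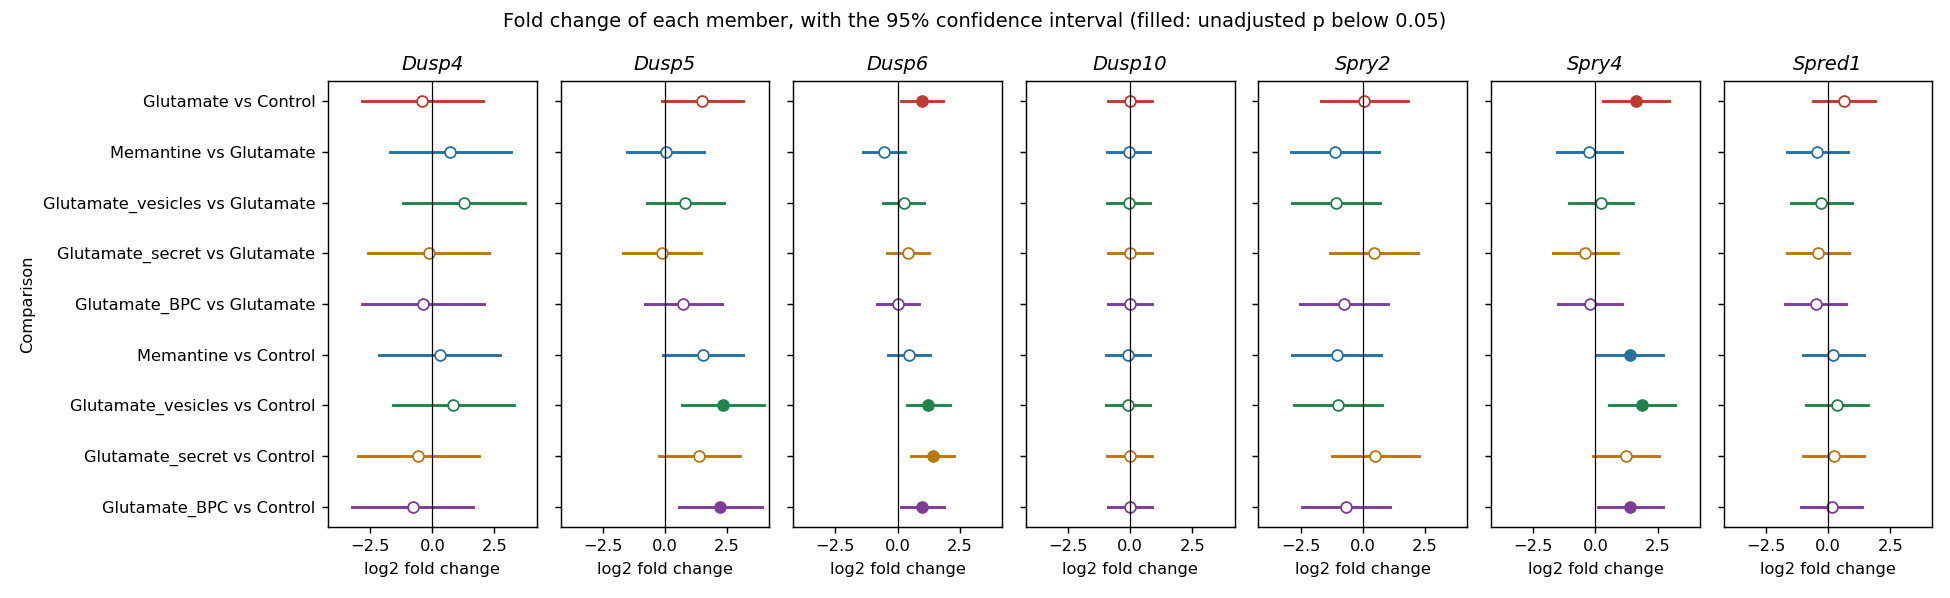
The log2 fold change of each member (horizontal axis) in the 9 comparisons of 2 groups (vertical axis), with the 95% confidence interval from edgeR. Filled points have an unadjusted p below 0.05. They occur for Dusp5, Dusp6 and Spry4 against Control, and in no comparison with Glutamate.

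Several members followed the rRNA share of the library. Over the 18 libraries, the log2 level of Spry2 rose with the log2 rRNA share, with a Pearson r of 0.862 (adjusted permutation p of 7e-05) and a Spearman rho of 0.944 (adjusted permutation p of 0.00014). That of Dusp4 fell, with an r of -0.872 (adjusted permutation p of 7e-05) and a rho of -0.872 (adjusted permutation p of 0.00021). The unadjusted permutation p of these r values, 1e-05, is the smallest that 100000 permutations can give. The relations held without the 2 libraries farthest from the median share, Control 1 and Glutamate_secret 2, at 0.882 for Spry2 and -0.907 for Dusp4. In the libraries of replicate number 1, 2 and 3, 6 each, r was 0.823, 0.268 and 0.886 for Spry2. It was -0.548, -0.513 and -0.842 for Dusp4. After the group means were taken out, r was 0.944 for Spry2 and -0.912 for Dusp4. The relation of Spry2 was weak within number 2, whose rRNA shares lay between 3.04% and 8.15%.

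Other members moved less with this share. The Pearson r was -0.697 for Spred1 (adjusted permutation p of 0.00593) and rho was -0.668 (adjusted permutation p of 0.0155), but r was 0.519, -0.229 and -0.736 within the 3 numbers, so that its direction did not hold in number 1. For Spry4 r was -0.653 (adjusted permutation p of 0.0111), rho was -0.558 (adjusted permutation p of 0.0497), r without the 2 farthest libraries was -0.45 and within the numbers it was -0.976, 0.0433 and -0.534. For Dusp5 r was -0.545 (adjusted permutation p of 0.0403), but rho was -0.428 (adjusted permutation p of 0.122). After the 2 farthest libraries were left out its r was -0.323, so that the relation was weaker without them. For Dusp10 r was 0.501 and for Dusp6 0.301, with adjusted permutation p-values of 0.0595 and 0.286. Their rho was 0.486 and 0.218, with adjusted permutation p-values of 0.087 and 0.471. After the group means were taken out, r was -0.818 for Spry4, -0.782 for Spred1 and -0.73 for Dusp5. It was 0.562 for Dusp6 and 0.498 for Dusp10. The adjusted p-values are from a family of 14 relations, which also holds the relations to the neuron markers. The part of the rRNA share in the levels was not tested beyond its use as a covariate.

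**Figure D3:**
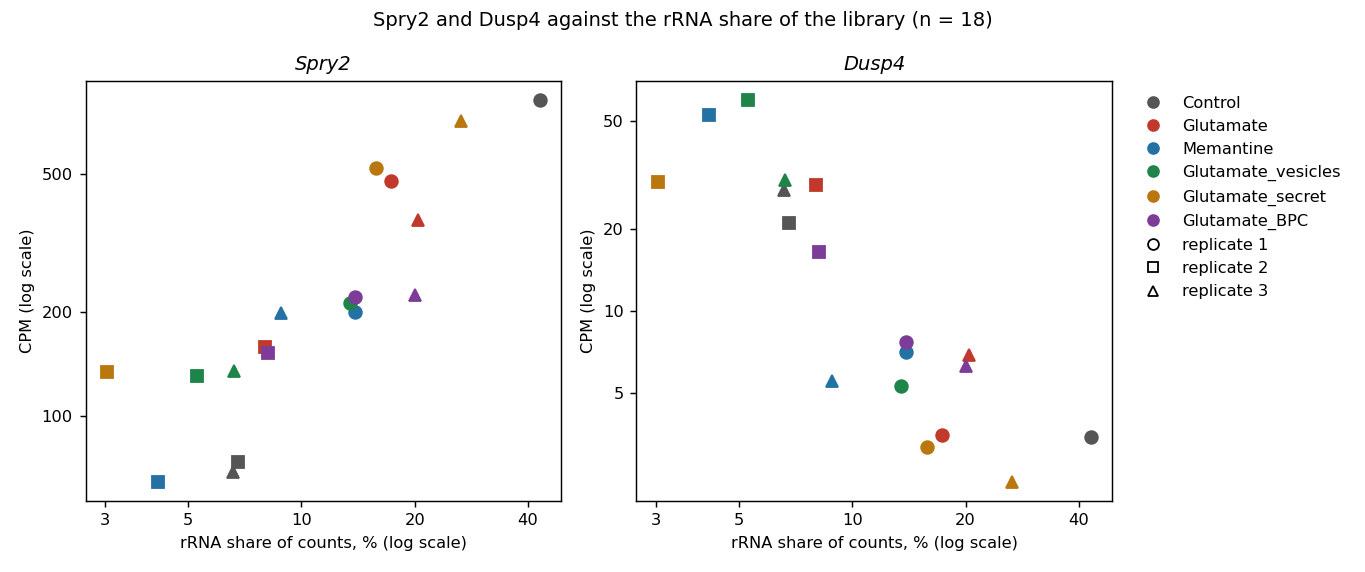
Level of Spry2 and Dusp4 in CPM against the percentage of counts from rRNA, both on log axes, for the 18 libraries. Colours give the group and symbols the replicate number. Spry2 is highest in Control 1, at 43.0% rRNA, and Dusp4 is highest in Glutamate_vesicles 2.

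The members also differed in their relation to each other, described over 18 libraries that share these differences in rRNA. Dusp4 and Spred1 had an r of 0.83 and Dusp5 and Spry4 one of 0.827, whereas Dusp4 and Spry2 had one of -0.863. The highest r of Dusp6 with another member was 0.611, with Spry2. After the group means were taken out, r was 0.899 for Dusp4 and Spred1, 0.755 for Dusp5 and Spry4 and -0.881 for Dusp4 and Spry2. For Dusp6 it was then 0.701 with Spry2 and -0.636 with Dusp4.

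Among 8415 other genes whose mean log2 CPM reached 3, the genes most like each member were named with their r over the 18 libraries. They were Copa (0.977) and Sec31a (0.974) for Dusp4, Gys1 (0.864) and Plod3 (0.862) for Dusp5, and Tsku (0.915) and Pum3 (0.888) for Dusp6. For Dusp10 they were Paqr7 (0.880) and Eepd1 (0.804). For Spry2 they were Homez (0.986) and Arl4a (0.973), for Spry4 Uaca (0.922) and Rai14 (0.911), and for Spred1 Bpnt2 (0.971) and Crkl (0.957). The lowest of these values belonged to Dusp10, which hardly varied.

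Neuron markers, summed over 9 genes, were 2094 to 2806 CPM in Control, and 3313 and 2289 CPM in Memantine 1 and 2. In Memantine 3 they were 651.3 CPM, within the range of the Glutamate group. The other groups lay between 500.2 and 1084 CPM, except for Glutamate 1 at 1133 CPM. In the same order, the 3 Memantine libraries had 24.4, 11.1 and 26.0 CPM of Dusp6, 1.83, 1.61 and 2.51 CPM of Dusp5 and 17.4, 12.8 and 16.5 CPM of Spry4. Memantine 1 and 2 had neuron markers at or above the lowest Control library. Their Dusp5 and Spry4 lay above every Control library. Their Dusp6 lay above every Control library in Memantine 1 and within the range of Control in Memantine 2. The libraries fell into separate sets on the scale of the neuron markers, so that a correlation over them is hard to read. Over the 18 libraries r was -0.6 for Dusp6 (adjusted permutation p of 0.0227) and -0.568 for Dusp5 (adjusted permutation p of 0.034). Their rho was -0.37 (adjusted permutation p of 0.185) and -0.608 (adjusted permutation p of 0.0298). After the group means were taken out, r was 0.0557 and -0.429. In the libraries of replicate number 1, 2 and 3, which each span all groups, r was -0.834, -0.912 and -0.804 for Dusp6. It was -0.163, -0.83 and -0.473 for Dusp5. No other member had an adjusted permutation p below 0.05 here. Without Memantine 3 the log2 fold change of Dusp6 against Glutamate was -0.75, with an adjusted p of edgeR of 0.538. Microglial markers, 8 of 8 detected, summed to 37.7 to 99.7 CPM in Control and 89.5 to 301.1 CPM in Glutamate. Those of the oligodendrocyte lineage, 7 of 7 detected, summed to 526.8 to 834.1 CPM and 1018 to 1199 CPM. Fibroblast and vascular markers stayed between 6.28 and 21.4 CPM over all libraries, with 4 of 8 past the filter. The part of the mixture of cells in the levels of the members was not tested.

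**Figure D4:**
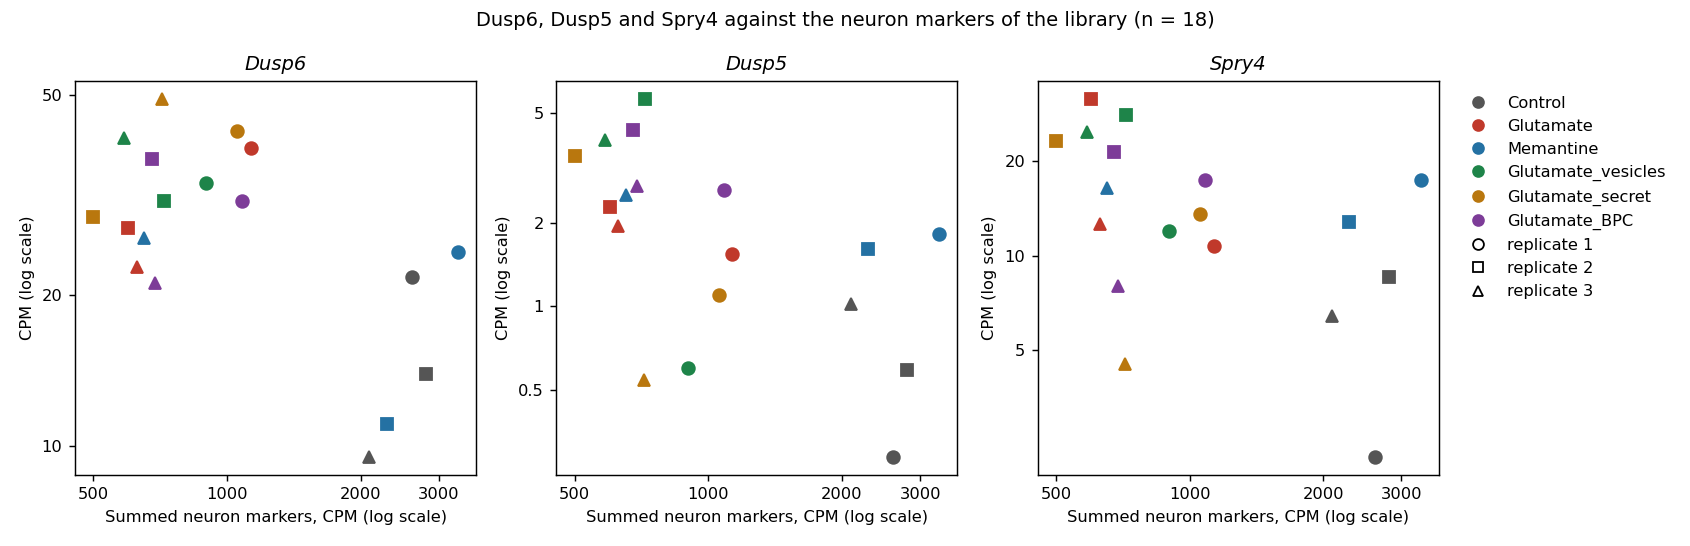
Level of Dusp6, Dusp5 and Spry4 in CPM against the summed neuron markers in CPM, both on log axes, for the 18 libraries. The 3 Control libraries, Memantine 1 and Memantine 2 lie at or above 2094 CPM of neuron markers, and the remaining 13 libraries lie at or below 1133 CPM.

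The rest of the pathway was described by lists. In Glutamate against Control, an unadjusted p below 0.05 was found for 8.11% of all genes and, in the upward direction, for 2.13%, and the counts of the lists are to be read beside these shares. Among 6 other MAP kinase phosphatases that were tested, 0 were called in Glutamate against Control by edgeR. At an unadjusted p below 0.05, 1 of them was lower and none higher. This was Dusp2, a nuclear phosphatase best known from immune cells, with a mean of 2.11 CPM in Glutamate and 7.20 CPM in Control (log2 fold change -1.77 ± 0.81, adjusted p of 0.593). Dusp9 did not pass the filter. Of 5 further Sprouty-type genes, 0 had an unadjusted p below 0.05. The smallest p in that list belonged to Spred3, with 10.3 ± 4.59 CPM in Glutamate and 4.50 ± 1.95 CPM in Control (log2 fold change 1.17 ± 0.55, unadjusted p of 0.0501).

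Of 16 tested genes of the cascade from Grb2 and Ras to ERK, 0 were called and 1 had an unadjusted p below 0.05, Ksr2, a scaffold for Raf and MEK found mainly in neurons. Its level averaged 11.3 ± 2.97 CPM in Control against 3.93 ± 1.76 CPM in Glutamate. Of the 6 tested p38 and JNK kinases, Mapk10, the JNK isoform of neurons, alone had an unadjusted p below 0.05, with 13.5 ± 4.86 CPM in Glutamate and 31.0 ± 2.49 CPM in Control. Mapk13 did not pass the filter. The median log2 fold changes were -0.20 for the cascade and -0.39 for the p38 and JNK kinases, against 0.08 for all genes.

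Transcripts known to follow ERK activity had a log2 fold change above 0 in 11 of 13 cases. By edgeR 0 of them were called, while 6 were higher and 1 lower at an unadjusted p below 0.05, and the median log2 fold change was 0.97. Fos, an early gene, had the smallest p of them, with 50.4 ± 26.9 CPM in Glutamate and 11.6 ± 2.32 CPM in Control (log2 fold change 2.13 ± 0.44, adjusted p of 0.261). The lower one was the receptor Epha4, with 23.1 ± 7.30 CPM in Glutamate and 101.0 ± 55.3 CPM in Control, named here after its value was seen. Of 10 ligands and receptors that act ahead of ERK, 3 were higher at an unadjusted p below 0.05 and none lower, with a median log2 fold change of 0.92. They were Hbegf, a ligand of the EGF receptor, with 164.0 ± 113.0 CPM in Glutamate and 26.5 ± 10.9 CPM in Control (adjusted p of 0.282), and Fgf2 and Areg, which were named after their values were seen. Their log2 fold changes were 2.64 ± 0.65, 2.17 ± 0.69 and 3.08 ± 1.21. Fgf2 averaged 2.49 ± 0.432 CPM in Glutamate and 0.665 ± 0.661 CPM in Control. Areg averaged 0.796 ± 0.487 CPM and 0.13 ± 0.135 CPM, so that the fold changes of Fgf2 and Areg rest on low levels. The lists were chosen with earlier results of these data known.

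In the comparisons with Glutamate, 0 of the 56 genes of these lists were called by edgeR. In Memantine, Ksr2, Mapk10 and Epha4 were higher than in Glutamate at an unadjusted p below 0.05, with log2 fold changes of 1.59 ± 0.71, 1.61 ± 0.47 and 1.97 ± 0.62. These are 3 of 56 genes, a share near the 5.08% of all genes that met the criterion there. In Glutamate_vesicles this held for Spry1, with 14.8 ± 5.51 CPM against 5.50 ± 1.53 CPM (log2 fold change 1.43 ± 0.63, adjusted p of 1). In Glutamate_secret, Areg was lower, with 0.112 CPM against 0.796 CPM, and in Glutamate_BPC 0 of the genes met this criterion. Spry1 and Areg were named there after their values were seen. The median log2 fold change of the transcripts that follow ERK against Glutamate was -0.43 for Memantine, -0.04 for vesicles, 0.0025 for Glutamate_secret and -0.23 for Glutamate_BPC. Against Control it was 0.68, 1.18, 0.98 and 0.93.

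**Figure D5:**
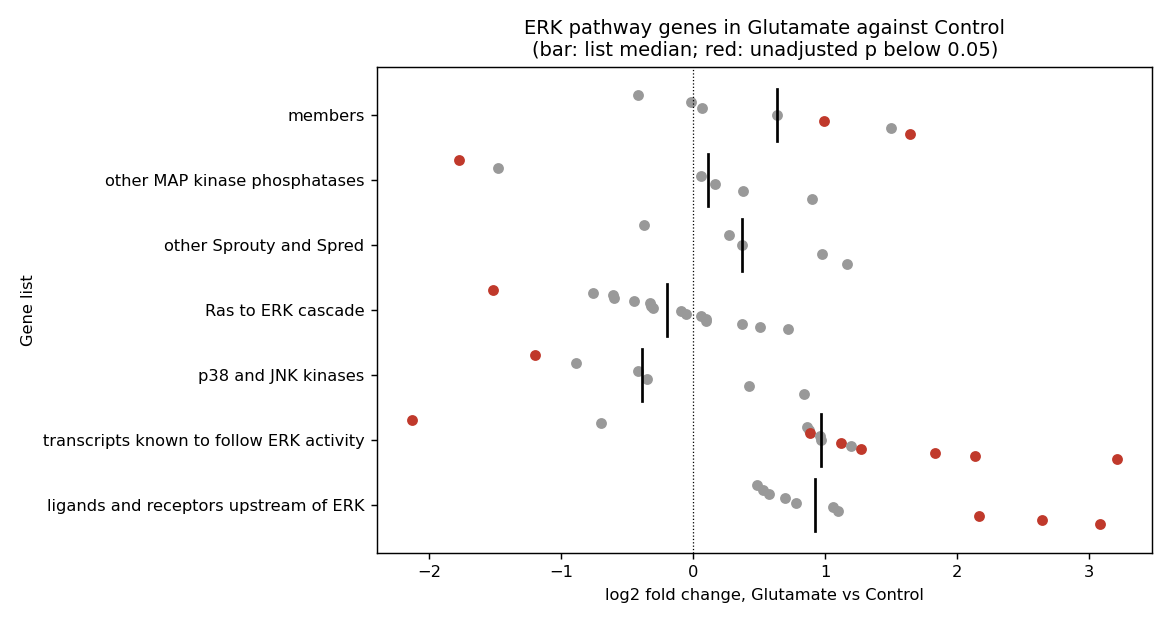
The log2 fold change in Glutamate against Control of the 7 members and of the genes of 6 lists around ERK, 1 point a gene. Bars mark the median of a list, 0.64 for the members and 0.97 for the transcripts known to follow ERK activity, and red points have an unadjusted p below 0.05.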

How the data were processed

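Polyadenylated RNA of 18 libraries was sequenced. Per the study's methods, reads were trimmed with Trimmomatic and Cutadapt and quantified with Salmon against rat transcripts of Ensembl release 106 (rn6) with the genome as decoy, and tximport summed them per gene. The submitters' processing notes name STAR as well as Salmon, without versions. The study's methods and the labels name different sequencers, and the strand setting of the counting is not stated in them, so antisense partners cannot be told apart. The authors deposited estimated counts per gene for each library, with 31463 rows each, and these expected counts were rounded to whole numbers here. Salmon divides reads among similar transcripts by estimation, which adds error for genes with near copies.

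Low genes were filtered by filterByExpr of edgeR (minimum count 10, minimum total 15), library sizes were scaled by TMM, and all 18 libraries were fitted together with the quasi-likelihood test of edgeR 4.0.16 in R 4.3.3. P-values are two-sided and were adjusted by Benjamini-Hochberg over the 14398 genes tested, with a threshold of 0.05. The SE is the log2 fold change divided by the square root of F, and intervals are at 95%. Levels are CPM, and log2 CPM used a prior count of 2. Correlations over libraries used 100000 permutations, two-sided. No pair of the 153 pairs of libraries held identical values. DESeq2 1.42.0, a likelihood-ratio test, other size factors, no filter, removal of 78 rRNA rows, the rRNA share as a covariate, the replicate number as a block and leaving out each library were alternatives. The scripts were tested on simulated data.

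Same-numbered libraries deviated together (r of their deviations from the group means over 0.1 in every pair) in 4 of 9 comparisons, namely Memantine, Glutamate_secret and Glutamate_BPC against Glutamate and Glutamate_vesicles against Control. Genes named outside the members were, per pathway list, any called gene and the smallest p in Glutamate against Control, and, per member, the 2 genes with the highest Pearson r over the 18 libraries. Others are named as chosen after their values were seen. The phosphatase signature planned for the proteins was not searched. The members and lists were chosen with earlier results of these data known. Motifs were searched in RefSeq windows of GRCr8, another build than that of the counts.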

Additional observations from a re-analysis of the deposited data

Results flagged for a closer look

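Dusp6 lay on opposite sides of the Glutamate mean in 2 groups, although the range of each overlapped with that of Glutamate. All 3 libraries of Glutamate_vesicles, with log2 CPM of 5.07, 4.95 and 5.36, were above the Glutamate mean of 4.86, and all 3 Memantine libraries, with 4.62, 3.49 and 4.71, were below it. The direct difference between the groups was 0.78 on the log2 scale (SE 0.398), with an unadjusted p of 0.0691 and an adjusted p of 0.759 by the quasi-likelihood test of edgeR, so it did not pass. Memantine 2 had the lowest level of the 6 libraries. Dusp6 in Glutamate_secret lay further above Memantine, by 0.96 on the log2 scale (SE 0.4). The same test gave an unadjusted p of 0.0285 and an adjusted p of 0.462 there. The case of Glutamate_vesicles and Memantine came from a search over all members and pairs of treated groups. Neither difference was among the planned comparisons, so these p-values belong to differences picked from many.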

How the results depend on the processing

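With all libraries and neither block nor covariate, edgeR called 0 members in any comparison, and leaving out single libraries called none either. Without Memantine 3, the calls over all genes went from 0 to 254 in Memantine against Glutamate and from 1 to 500 over the 6 groups. DESeq2 called 1 member in Glutamate_secret against Control, Dusp6. With the rRNA share as a covariate 2 were called there, Dusp6 and Spry2. With the replicate number as a block, 1 was called in Glutamate_vesicles against Control, Spry4, and 1 in Glutamate_secret against Control, Dusp6. In Glutamate_secret against Control, the deviations of same-numbered libraries had an r of 0.534, 0.598 and -0.454 for numbers 1, 2 and 3. In Glutamate against Control, r was 0.591, 0.571 and -0.117. Number 3 thus kept both comparisons from meeting the criterion of r over 0.1 in every pair. In Glutamate against Control the block moved the calls over all genes from 0 to 166 and called no member. In the paired comparisons the block changed no other call of a member. Chosen after seeing the data, the block with the rRNA share called 1 member in Glutamate against Control (Spry4), 2 in Glutamate_vesicles (Dusp6, Spry4), 2 in Glutamate_secret (Dusp6, Spry2) and 2 in Glutamate_BPC (Dusp5, Spry4) against Control, among 614, 674, 1482 and 1122 genes. The block with a likelihood-ratio test, also chosen after seeing the data, called 1 (Spry4), 3 (Dusp5, Dusp6, Spry4), 1 (Dusp6) and 1 (Dusp5) in the same order, and 1 (Dusp6) over the 6 groups, among 777, 1310, 1497, 1299 and 1718 genes. The cause was not tested. Over all genes, edgeR, the likelihood-ratio test, DESeq2 and the block called 0, 45, 232 and 166 in Glutamate against Control. They called 2, 160, 495 and 538 in Glutamate_vesicles, 0, 223, 449 and 700 in Glutamate_secret and 0, 61, 256 and 251 in Glutamate_BPC against Control, and 1, 587, 717 and 497 over the 6 groups. With the rRNA share as a covariate these 5 counts were 32, 57, 581, 18 and 385, and without the filter 5 genes were called over the 6 groups.

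Several log2 fold changes turned in sign. For Dusp10 the value was 0.0094 by DESeq2 and 0.011 by the block with a likelihood-ratio test in Glutamate against Control. With DESeq2 size factors it was 0.034 in Glutamate_secret and 0.0097 in Glutamate_BPC against Glutamate, and with only the compared groups 0.0031 and 0.015. With the rRNA share it was 0.065, 0.050, 0.040 and 0.0043 in Memantine, Glutamate_vesicles, Glutamate_secret and Glutamate_BPC, and with the block added 0.061, 0.060, 0.055 and 0.0077. With the rRNA share, Memantine against Glutamate gave -0.61 for Dusp4 and -0.44 for Dusp5, and with the block added -0.24 and -0.53. Spry4 in Glutamate_vesicles against Glutamate gave -0.24 and -0.30, and Dusp5 -0.021 with both. Dusp4 in Glutamate_BPC against Glutamate gave 0.18 with the block and 0.21 with its likelihood-ratio test.

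Leaving out single libraries, the log2 fold change in Glutamate against Control ranged from -1.76 to 0.085 for Dusp4, -0.24 to 0.16 for Dusp10, -0.41 to 2.24 for Spry2 and -0.12 to 0.95 for Spred1. In Memantine against Glutamate it ranged from -1.08 to 2.06 for Dusp4, -0.18 to 0.18 for Dusp5, -0.24 to 0.15 for Dusp10, -0.51 to 0.41 for Spry4 and -1.02 to 0.33 for Spred1. In Glutamate_vesicles it ranged from -0.33 to 0.16 for Dusp10, -0.031 to 0.89 for Spry4 and -0.59 to 0.48 for Spred1. In Glutamate_secret it ranged from -2.27 to 1.21 for Dusp4, -1.22 to 0.28 for Dusp5, -0.19 to 0.21 for Dusp10, -0.030 to 0.88 for Spry2, -1.02 to 0.25 for Spry4 and -1.26 to 0.35 for Spred1. In Glutamate_BPC it ranged from -0.92 to 0.97 for Dusp4, -0.19 to 0.25 for Dusp6, -0.21 to 0.22 for Dusp10, -0.53 to 0.42 for Spry4 and -0.80 to 0.27 for Spred1. Of the counts of members called under the alternatives, 177 stayed as they were and 13 moved. Of the log2 fold changes of single members that were followed, 667 kept direction and side of the threshold, 68 turned in sign and 16 passed it newly. For the treated groups against Control, only Dusp5, Dusp6 and Spry4, the members reported there, were followed. The new calls of Spry2 in Glutamate_secret against Control are therefore outside this tally. Depth limited Dusp5 most, with 1 count in Control 1.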
